A study of Mus musculus with 9 samples.

Results

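The cytosolic ribosomal protein genes were taken from the count table by symbol, as Rpl or Rps followed by a digit, together with Rplp0, Rplp1, Rplp2 and Rpsa. Rows for S6 kinases, for Rps19bp1, for antisense RNAs and for pseudogenes named with -ps were left out. This gave 90 of the 40773 genes in the table, 55 of the large subunit and 35 of the small subunit. Of these, 77 are the canonical genes (46 large, 31 small) and 13 are paralogs or retrogenes.

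RNA was sequenced from cultured embryonic mouse cortical neurons in 3 treatment groups of 3 libraries each. Controls received a non-charged peptide amphiphile (PA), a molecule of peptide and lipid that assembles in water. The other cultures received ion-charged nanostructures (ICN) carrying either sodium (Na+ ICN) or potassium (K+ ICN). Per the labels, all 9 cultures received 80 µl of material at 200 µM from a 5 mM stock and a change of 50% of the medium at 48 h, and the series design gives harvest at 72 h. No untreated culture is among these libraries, so changes against PA are not changes against untreated cells. The mouse strain, the embryonic day and any treatment against dividing cells are not stated in the labels. Library totals lay between 17924988 and 22906950 counts, and levels are given as CPM, the count of a gene scaled to a common library total. Whether the 3 replicates of a group are separate dissections or wells of one is not in the labels, and p-values cover only the variation among these libraries.

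A cytosolic ribosome joins a small subunit, which decodes the messenger RNA, to a large subunit, which forms the peptide bonds and carries the exit tunnel for the new protein. Cells make the proteins of both subunits in matched amounts, and unassembled ones are degraded. Their messenger RNAs carry a run of pyrimidines at the 5′ end (the TOP motif), through which mTOR and Larp1 control their translation and stability. In neurons, ribosomal protein messages are present both in the cell body and in neurites, where local translation occurs.

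Together the 90 genes took a small share of all counts, and that share was higher in both ICN groups. The large subunit genes summed to 0.991%, 0.973% and 1.01% of counts in the 3 PA libraries, to 1.11%, 1.11% and 1.06% with Na+ ICN, and to 1.08%, 1.05% and 1.02% with K+ ICN. The small subunit genes summed to 0.645%, 0.627% and 0.648% with PA, to 0.724%, 0.726% and 0.686% with Na+ ICN, and to 0.703%, 0.676% and 0.657% with K+ ICN. For both subunits every ICN library lay above every PA library, while the Na+ and K+ groups overlapped, since Na+ ICN replicate 3 lay below K+ ICN replicate 1. Means for both subunits together were 1.63% ± 0.0273 with PA, 1.80% ± 0.0509 with Na+ ICN and 1.73% ± 0.0563 with K+ ICN (SD, n = 3). The ratio of large to small subunit counts was 1.55 ± 0.00903 with PA, 1.53 ± 0.00935 for Na+ ICN and 1.55 ± 0.00517 for K+ ICN. The PA range overlapped both ICN ranges, while every Na+ ICN library, at 1.540 or less, lay below every K+ ICN library, at 1.542 or more. With pseudogene rows named with -ps added to their genes, the ratio was 1.503 or more with PA and 1.499 or less with Na+ ICN, and these groups then no longer overlapped. They were also apart with sequence-matched pseudogene rows added (1.545 or more and 1.542 or less). No test was made on these sums, because the genes summed were chosen. In bulk RNA, a different number of cells of a type and a different amount of RNA per cell cannot be told apart.

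**Figure D1:**
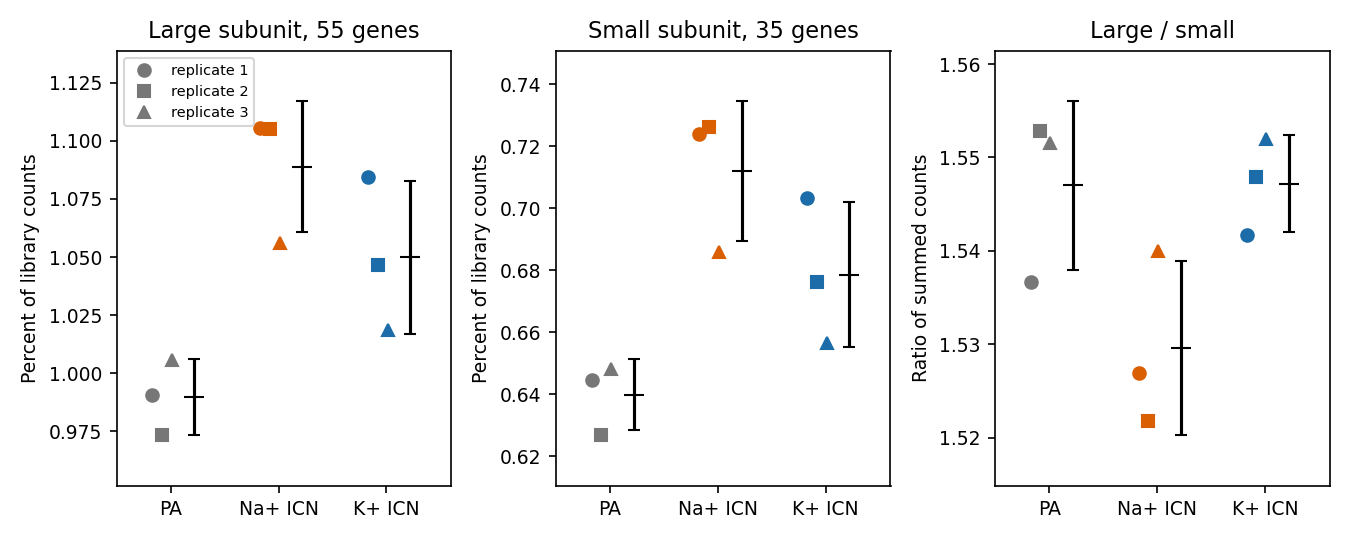
Summed counts of the large subunit genes (left) and small subunit genes (middle) as a percent of each library's counts, and the ratio of the sums (right), for PA, Na+ ICN and K+ ICN. Symbols are the 3 replicates of each group, the bar beside them is mean ± SD, and the vertical axes do not start at 0; all ICN libraries lie above 1.01% for the large and above 0.648% for the small subunit, the highest PA values.

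Within each group the libraries did not stand alike. Na+ ICN replicate 3 had the lowest CPM of its group for 59 of the 85 ribosomal protein genes tested, K+ ICN replicate 3 was lowest for 59 and K+ ICN replicate 1 highest for 64. Among PA libraries, replicate 2 was lowest for 50. The spread within a group was therefore shared by many of the genes, and genes of one library are not independent of each other.

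Levels between genes are compared per kilobase of transcript. The length is that of the longest principal protein-coding transcript annotated for a gene, or of its longest transcript where none is coding. Where the cells use a shorter transcript, the level per kb is too low. Over the 46 canonical large subunit genes the median was 209 CPM per kb, from 1.28 for Rpl21 to 618 for Rpl41, and over the 31 canonical small subunit genes it was 262 CPM per kb, from 9.42 for Rps6 to 411 for Rps15. Most paralogs were far below their canonical partners. Rps4l had 6.27 CPM per kb with PA beside 323 for Rps4x, and Rpl7l1 had 17.4 beside 284 for Rpl7. Rpl22l1 was nearer to its partner, with 45.0 CPM per kb beside 83.4 for Rpl22. The testis paralog Rpl10l had 0 counts in every library. Rpl10l, Rpl32l, Rpl39l, Rpl3l (a muscle paralog of Rpl3) and Rps23rg1 were too low to test, which left 51 large and 34 small subunit genes.

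The low rows of Rps6, Rpl34, Rpl21 and Rpl26 stood beside high rows for near-identical pseudogenes. Transcripts annotated as pseudogenes were aligned to the members' coding sequences, and 100 rows matched with at least 90% identity over at least 50% of the coding sequence. For 39 canonical genes at least 1 such row existed, and for 4 genes these rows held over 50% of the counts of gene and copies together. The share was 98.7% for Rpl34, 97.4% for Rps6, 97.4% for Rpl21 and 74.9% for Rpl26. Rps6, the small subunit protein phosphorylated by S6 kinases, shows how close a copy can be. Its row held 9.88, 7.45 and 7.64 CPM with PA, while Rps6-ps4 held 279, 281 and 287 CPM. The coding sequence of Rps6 (chr4:86854660-86857412, minus strand, GRCm38) and Rps6-ps4 (chr2:75191073-75191822, minus strand) were identical over all 750 bases, and the first 60 read as follows (GENCODE vM21 transcripts).
Rps6: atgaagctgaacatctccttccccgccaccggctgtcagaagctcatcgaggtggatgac
Rps6-ps4: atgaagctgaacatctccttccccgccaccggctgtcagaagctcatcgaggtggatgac
Rpl34 (chr3:130726831-130730398, minus strand) and Rpl34-ps1 (chr6:71124610-71124963, plus strand) were identical at 352 of 354 coding bases, and Rpl26 (chr11:68901583-68906989, plus strand) and Gm15772 (chr5:3236431-3236868, plus strand) at 436 of 438. Stretches of 60 coding bases are shown for both pairs, starting at coding base 79 for Rpl34 and 124 for Rpl26, with a capital at the base that differs.
Rpl34: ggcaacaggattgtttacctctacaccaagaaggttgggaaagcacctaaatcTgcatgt
Rpl34-ps1: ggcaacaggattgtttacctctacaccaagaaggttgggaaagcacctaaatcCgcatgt
Rpl26: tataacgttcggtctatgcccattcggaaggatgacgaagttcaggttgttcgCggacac
Gm15772: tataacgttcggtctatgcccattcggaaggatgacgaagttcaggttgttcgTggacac
A read that lies within identical bases cannot be placed at one locus by sequence, while one that covers a differing base can. How the deposited counts divided them is not given in the sources used here. The rows of these genes are therefore uncertain, and sums of gene and copies are given beside them.

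**Figure D2:**
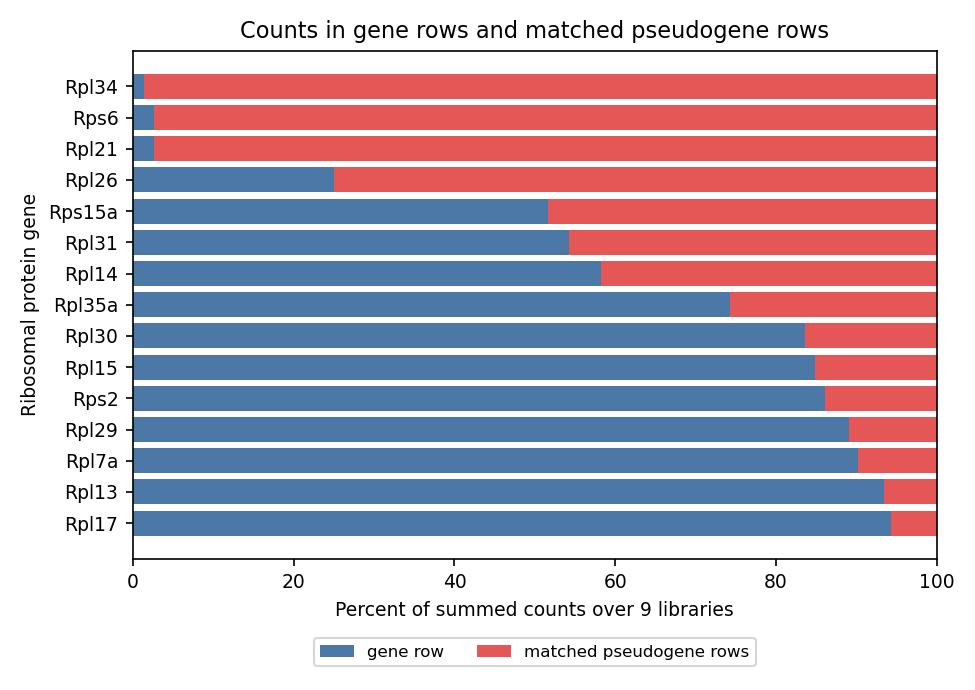
Share of counts, summed over the 9 libraries, in the row of each ribosomal protein gene (blue) and in the rows of its sequence-matched pseudogenes (red), for the 15 canonical genes with over 5% in pseudogene rows. In Rpl34, Rps6, Rpl21 and Rpl26 the pseudogene rows hold from 74.9% to 98.7%.

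The first comparison asked how Na+ ICN changed these messages relative to the non-charged PA. Of the 85 genes tested, 45 rose and 1 fell, while 39 did not pass (edgeR quasi-likelihood test, adjusted p under 0.05 over 15183 genes). Among all genes tested, 5.63% were called higher and 5.22% lower, against 52.9% and 1.18% here. In the large subunit 29 of 51 rose and Rpl22l1 fell, with a median log2 fold change of 0.14, and in the small subunit 16 of 34 rose with a median of 0.16, beside a median of 0.00 over all genes. The 45 were all canonical genes, and their rises were small, from 0.10 on the log2 scale for Rpl9 to 0.36 for Rpl12. Estimates were positive for 78 of 85. In 48 genes every Na+ ICN library lay above every PA library, which held for 12.2% of all genes.

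Rpl12, which sits at the base of the stalk where elongation factors dock, rose furthest among the large subunit genes past the threshold. It was 198, 193 and 197 CPM with PA, 246, 252 and 247 CPM with Na+ ICN, and 245, 238 and 238 CPM with K+ ICN. Both ICN groups lay clear of PA. The rise with Na+ ICN was 1.28-fold (log2 0.36, SE 0.033, adjusted p = 2.78e-11 by edgeR).

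Rpl23a, which lies at the mouth of the exit tunnel where the signal recognition particle binds, was 295, 288 and 297 CPM with PA and 349, 364 and 349 CPM with Na+ ICN (1.22-fold, SE 0.032 on the log2 scale, edgeR adjusted p = 4.92e-09). Rpl4, whose extension lines the tunnel, was 517, 502 and 515 CPM with PA and 604, 591 and 602 CPM with Na+ ICN (1.18-fold, edgeR adjusted p = 6.22e-09). Rpl17, which also lines the tunnel, was 225, 228 and 236 CPM with PA and 270, 281 and 270 CPM with Na+ ICN (1.20-fold, edgeR adjusted p = 9.37e-08). For these 3 genes no Na+ ICN library overlapped a PA library. Rpl39, a further protein of the tunnel, did not pass (log2 0.11, edgeR adjusted p = 0.15), and its groups overlapped. Rpl7, an RNA-binding protein of the large subunit, went from 333, 325 and 332 CPM to 382, 383 and 392 CPM (1.18-fold, edgeR adjusted p = 1.03e-07).

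In the small subunit Rps7, Rps3a1, Rps4x and Rps23 were among the genes with the smallest p-values. Rps7, one of the ribosomal proteins that can bind Mdm2, was 278, 288 and 288 CPM with PA and 328, 343 and 340 CPM with Na+ ICN (1.19-fold, edgeR adjusted p = 3.89e-08). Rps3a1, near the messenger RNA exit, rose 1.16-fold from 344, 350 and 341 CPM to 405, 395 and 392 CPM (edgeR adjusted p = 6.8e-07). The groups were apart in all of these. The X-linked Rps4x, which varied little among PA libraries (315, 315 and 316 CPM), was 363, 357 and 363 CPM with Na+ ICN (1.16-fold, edgeR adjusted p = 3.62e-06). Rps23, a protein of the decoding centre, was 226, 225 and 231 CPM with PA and 258, 271 and 256 CPM with Na+ ICN (1.16-fold, edgeR adjusted p = 1.39e-05).

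**Figure D3:**
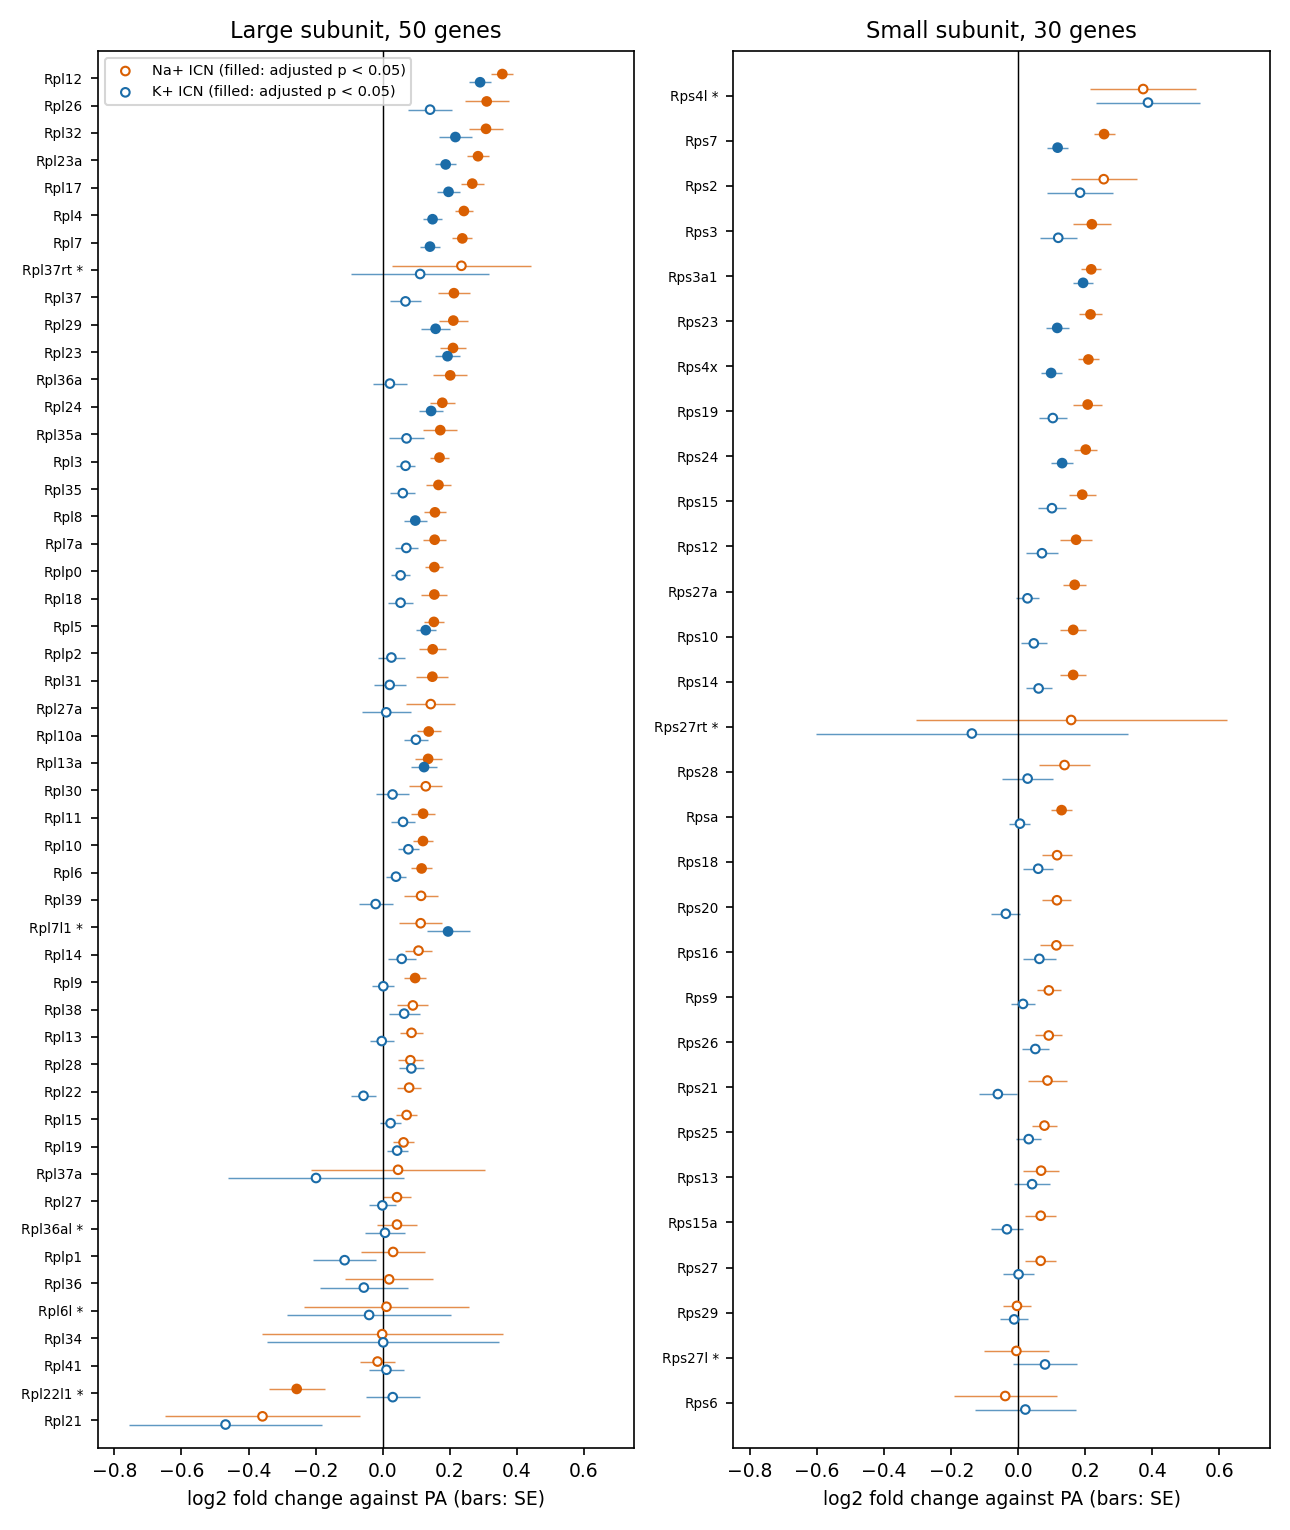
Log2 fold change against PA of 50 large subunit genes (left) and 30 small subunit genes (right), for Na+ ICN (orange) and K+ ICN (blue), with bars of 1 SE and filled circles where edgeR's adjusted p was under 0.05. An asterisk marks a paralog or retrogene. Filled orange circles lie between 0.10 and 0.36 except Rpl22l1 at -0.26, and most blue circles lie nearer 0.

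The canonical genes that did not pass with Na+ ICN included Rpl13, Rpl14, Rpl15, Rpl19, Rpl21, Rpl22, Rpl27, Rpl27a, Rpl28, Rpl30, Rpl34, Rpl36, Rpl37a, Rpl38, Rpl39, Rpl41 and Rplp1 in the large subunit. In the small subunit they included Rps2, Rps6, Rps9, Rps13, Rps15a, Rps16, Rps18, Rps20, Rps21, Rps25, Rps26, Rps27, Rps28 and Rps29. Several of them varied widely between replicates. Rpl37a ranged from 71.5 to 95.2 CPM with PA and from 59.4 to 94.1 CPM with Na+ ICN. Rps2, a protein at the messenger RNA entry, was 278, 282 and 258 CPM with PA and 349, 338 and 280 CPM with Na+ ICN. Only Na+ ICN replicate 3 reached into the PA range there, and the estimate of 1.19-fold had an edgeR adjusted p of 0.186. Rpl41, with 370, 348 and 363 CPM for PA and 379, 352 and 330 CPM for Na+ ICN, had overlapping groups and an estimate of -0.02 on the log2 scale (SE 0.052).

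Sums of gene and matched pseudogene rows, an alternative chosen after seeing the data, were tested for the 39 genes with such rows. With Na+ ICN 26 sums rose, where 20 had passed on their own rows. All 20 were among the 26, and the other 6 were Rps6, Rpl34, Rpl21, Rpl14, Rps15a and Rpl30. On the own row of Rps6 the estimate with Na+ ICN was -0.04 on the log2 scale (edgeR adjusted p = 0.917), with overlapping groups. Gene and copies together were 289, 289 and 295 CPM with PA, 330, 337 and 333 CPM with Na+ ICN and 331, 327 and 315 CPM with K+ ICN. That sum rose 1.16-fold with Na+ ICN (edgeR adjusted p = 2.14e-06) and 1.11-fold with K+ ICN (edgeR adjusted p = 0.000321), and no ICN library overlapped PA. Rpl34 with its copy was 119, 119 and 117 CPM with PA and 135, 133 and 122 CPM with Na+ ICN (1.11-fold, edgeR adjusted p = 0.0155). Rpl21, at -0.36 on the log2 scale on its own row of under 4 CPM (edgeR adjusted p = 0.5), was 87.4, 85.9 and 81.6 CPM with its copies for PA and 96.4, 91.8 and 90.9 CPM for Na+ ICN, a rise of 1.11-fold (edgeR adjusted p = 0.0464). The groups did not overlap in the Rpl21 sum. The sums of Rpl14 (1.14-fold, edgeR adjusted p = 0.000254), Rps15a (1.11-fold, edgeR adjusted p = 0.00522) and Rpl30 (1.11-fold, edgeR adjusted p = 0.0191) rose too, where the own rows had adjusted p of 0.0914, 0.413 and 0.09. With K+ ICN 12 sums passed instead of 9, with Rps6, Rpl26 and Rpl31 added, and between K+ and Na+ ICN 9 passed instead of 7, with Rps15a and Rpl9 added. Rpl26 passed on its own row with Na+ ICN (1.24-fold, edgeR adjusted p = 0.000916) and also as a sum with Gm15772 (1.18-fold, edgeR adjusted p = 0.000155). Among the 50 pseudogene rows that could be tested, 6 rose with Na+ ICN (12% beside 5.63% of all genes tested) and 4 rose with K+ ICN (8% beside 8.15%).

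The second comparison set K+ ICN against PA. Here 21 of 85 genes rose, 24.7% beside 8.15% of all genes tested, and 0 fell, beside 7.68% of all genes. No member was called lower by DESeq2 or limma voom either, and 0 were lower at an unadjusted p under 0.05. In the large subunit 14 of 51 rose, Rpl7l1 among them, and in the small subunit 7 of 34 rose. Median log2 fold changes were 0.06 for either subunit and 0.00 over all genes, and 71 of 85 estimates were positive. In 30 genes all K+ ICN libraries lay above all PA libraries, which held for 16.9% of all genes. Without PA replicate 2, 4 small subunit genes passed instead of 7.

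Rpl12 again had the smallest p, with a rise of 1.22-fold (log2 0.29, SE 0.033, edgeR adjusted p = 3.03e-09). Rpl23a was 350, 332 and 326 CPM with K+ ICN (1.14-fold, edgeR adjusted p = 1.49e-05). Rpl17 was 274, 263 and 255 CPM (1.15-fold, edgeR adjusted p = 1.82e-05), and Rpl4 was 574, 568 and 565 CPM (1.11-fold, edgeR adjusted p = 5.92e-05). All libraries of these genes lay above PA.

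Rps3a1 led the small subunit with K+ ICN at 406, 397 and 385 CPM (1.14-fold, edgeR adjusted p = 3.19e-06). Rps24, which was 307, 314 and 320 CPM with PA, was 356, 348 and 329 CPM with K+ ICN (1.09-fold, edgeR adjusted p = 0.00413). Both groups were apart from PA. Rps7, at 311, 310 and 310 CPM, rose 1.08-fold (edgeR adjusted p = 0.00551), but without PA replicate 1 its adjusted p was 0.0525. Under a correction for transcript length and GC content, the K+ ICN calls of Rps24 and Rps7 did not pass (edgeR adjusted p = 0.0515 and 0.137), and 2 small subunit genes passed in all.

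**Figure D4:**
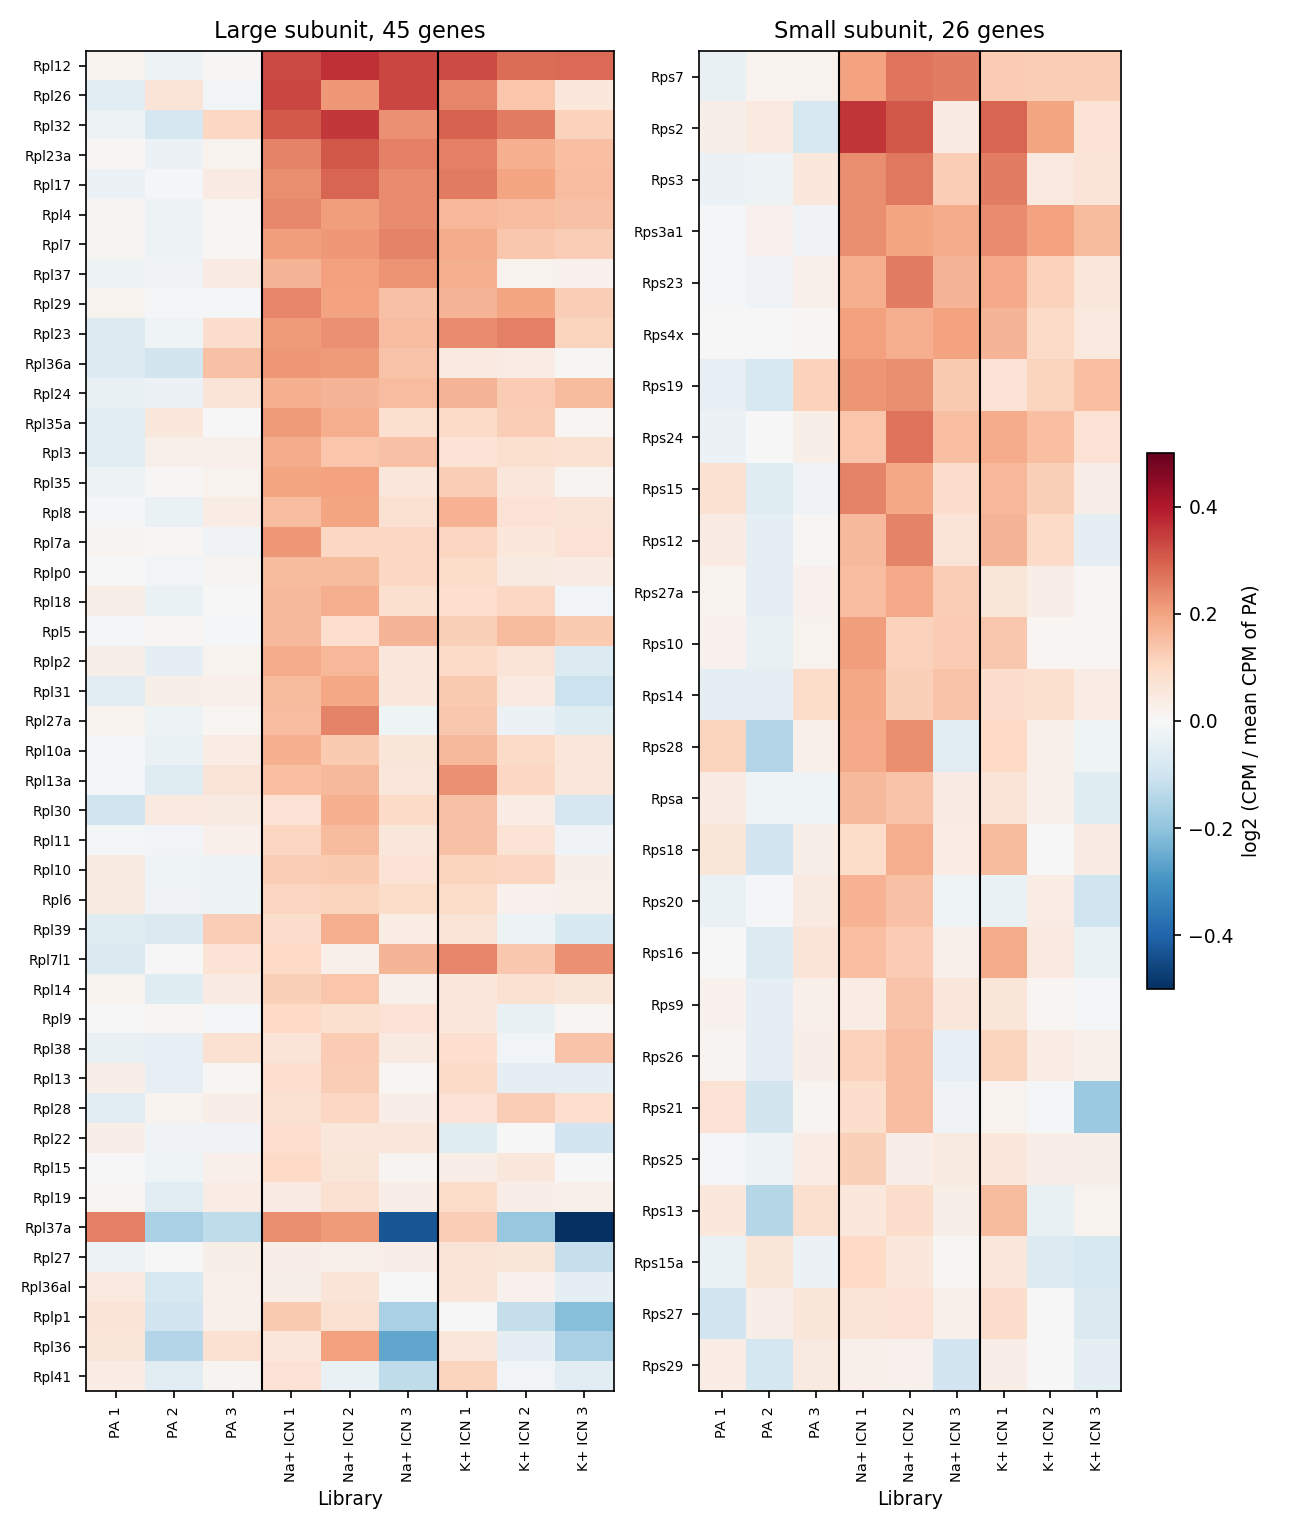
Log2 ratio of each library's CPM to the mean CPM of PA for 45 large subunit genes (left) and 26 small subunit genes (right) with a mean of at least 30 CPM in PA, ordered by the Na+ ICN estimate; columns are the 9 libraries and colours stop at 0.5 in either direction. Red fills most of the Na+ ICN columns and paler red the K+ ICN columns, with Na+ ICN 3 and K+ ICN 3 palest in their groups; Rpl37a varies most within groups.

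Directly compared, K+ ICN libraries had lower levels than Na+ ICN libraries in 14 of 85 genes and a higher level in 1, Rpl22l1. This was 16.5% lower beside 3.25% of all genes tested, and 1.18% higher beside 3.33%. The large subunit had 7 lower of 51 (median log2 -0.08) and the small subunit 7 lower of 34 (median -0.09), and 76 of 85 estimates were negative. In 14 genes all K+ ICN libraries lay below all Na+ ICN libraries, which held for 8.56% of all genes. With single libraries left out, where a smaller group makes a call harder to reach, the large subunit count changed. It was 3 without Na+ ICN replicate 2, 1 without K+ ICN replicate 2, 0 without K+ ICN replicate 3, and without Na+ ICN replicate 1 the 1 gene left was Rpl22l1. The small subunit count was 4 without Na+ ICN replicate 1 and 4 without K+ ICN replicate 3. With a length and GC correction, 18 large subunit genes passed instead of 8.

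Rps7 and Rps27a were among the small subunit genes with the smallest p-values of this comparison, and each passed in every alternative fit run, including those without a single library. Rps7 was 311, 310 and 310 CPM with K+ ICN beside 328, 343 and 340 CPM with Na+ ICN (0.908-fold, edgeR adjusted p = 0.00184). Its K+ ICN libraries lay between those of PA and Na+ ICN. Rps27a, made as a fusion to ubiquitin, was 204, 195 and 205 CPM with PA, 224, 230 and 219 CPM with Na+ ICN and 210, 206 and 202 CPM with K+ ICN (0.907-fold, edgeR adjusted p = 0.00505 for K+ against Na+ ICN). It rose with Na+ ICN (1.12-fold, edgeR adjusted p = 0.000558), while its K+ ICN libraries overlapped PA (1.02-fold, edgeR adjusted p = 0.67).

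Rpsa, a small subunit protein also known as the laminin receptor, was 759, 728 and 728 CPM with PA, 827, 814 and 760 CPM with Na+ ICN and 773, 753 and 707 CPM with K+ ICN. It rose with Na+ ICN (1.09-fold, edgeR adjusted p = 0.005) and was lower with K+ than with Na+ ICN (0.918-fold, edgeR adjusted p = 0.00895), although those groups overlapped. That second call was lost without Na+ ICN replicate 1, Na+ ICN replicate 2 or K+ ICN replicate 3 (adjusted p = 0.0744, 0.0718 and 0.104) and with limma voom (adjusted p = 0.0561).

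In the large subunit the 5 smallest p-values with K+ against Na+ ICN belonged to Rpl22, Rplp0, Rpl36a, Rpl3 and Rpl4, and each lost its call in 3 or 4 of the fits without a single library. Rpl3, which reaches towards the peptidyl transferase centre, was 424, 448 and 448 CPM with PA, 500, 484 and 487 CPM with Na+ ICN and 462, 465 and 464 CPM with K+ ICN (0.932-fold, edgeR adjusted p = 0.0219 for K+ against Na+ ICN). Adjusted p-values for Rpl3 in the 4 fits where it did not pass lay between 0.06, without K+ ICN replicate 3, and 0.12, without Na+ ICN replicate 1. Rpl4 was at 0.937-fold of its Na+ ICN level (edgeR adjusted p = 0.0248) and did not pass without Na+ ICN replicate 1 or 3 or K+ ICN replicate 2 or 3 (adjusted p = 0.0884, 0.0681, 0.0899 and 0.0795). Rpl36a was 103, 103 and 98.0 CPM with Na+ ICN and 91.8, 91.2 and 89.2 CPM with K+ ICN (0.883-fold, edgeR adjusted p = 0.0184), with adjusted p-values up to 0.0844 without Na+ ICN replicate 2.

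The stalk that recruits elongation factors is built from Rplp0 with pairs of Rplp1 and Rplp2. Rplp0 was 601, 594 and 606 CPM with PA, 670, 671 and 645 CPM with Na+ ICN and 640, 620 and 617 CPM with K+ ICN. The 3 groups did not overlap, and Rplp0 rose with Na+ ICN (1.11-fold, edgeR adjusted p = 6.94e-05), did not pass with K+ ICN (1.04-fold, edgeR adjusted p = 0.191) and was lower with K+ than with Na+ ICN (0.933-fold, edgeR adjusted p = 0.0133). The last call was lost without Na+ ICN replicate 1 or 2 or K+ ICN replicate 2 or 3 (adjusted p between 0.0665 and 0.0803). Rplp2 rose with Na+ ICN (1.11-fold, edgeR adjusted p = 0.011), from 169, 160 and 168 CPM to 188, 186 and 172 CPM, but not without PA replicate 2, Na+ ICN replicate 1 or Na+ ICN replicate 2 (adjusted p = 0.083, 0.0713 and 0.0645). Between K+ and Na+ ICN Rplp2 was 0.918-fold and just missed the threshold (edgeR adjusted p = 0.0565), and it passed as lower in some alternative fits. Rplp1 was 255, 228 and 248 CPM with PA and 267, 257 and 218 CPM with Na+ ICN, and the spread within Na+ ICN exceeded the difference between the means (1.02-fold, edgeR adjusted p = 0.893). With K+ ICN, Rplp1 was 244, 225 and 210 CPM, again overlapping PA.

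Rpl5 and Rpl11 bind the 5S ribosomal RNA together and, outside the ribosome, bind Mdm2. Rpl5 was 349, 352 and 349 CPM with PA, 392, 371 and 394 CPM with Na+ ICN and 380, 390 and 383 CPM with K+ ICN. It rose in both comparisons with PA (1.11-fold, edgeR adjusted p = 0.00039, and 1.09-fold, edgeR adjusted p = 0.00173). Rpl11 was 232, 232 and 238 CPM with PA, 252, 261 and 243 CPM with Na+ ICN and 259, 245 and 231 CPM with K+ ICN. Its rise with Na+ ICN was 1.09-fold (edgeR adjusted p = 0.0212) and was lost in 4 of the fits without a single library, with adjusted p up to 0.144 without Na+ ICN replicate 2. Rpl11 in K+ ICN overlapped PA (edgeR adjusted p = 0.274).

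Rpl22l1 was the single member called lower with Na+ ICN against PA and the single one called higher with K+ against Na+ ICN. In mouse, Rpl22 protein is known to bind the Rpl22l1 message and lower its level, and the paralog can take its place in the ribosome. Rpl22l1 was 24.5, 24.2 and 25.8 CPM with PA, 21.4, 20.9 and 19.6 CPM with Na+ ICN and 25.6, 25.6 and 25.3 CPM with K+ ICN. All Na+ ICN libraries lay below the other 6. Rpl22l1 fell to 0.837-fold of PA with Na+ ICN (log2 -0.26, SE 0.083, edgeR adjusted p = 0.0374) and was 1.22-fold higher with K+ than with Na+ ICN (log2 0.29, edgeR adjusted p = 0.0232), while K+ ICN and PA overlapped (1.02-fold, edgeR adjusted p = 0.865). Rpl22 itself was 175, 169 and 169 CPM with PA, 181, 178 and 178 CPM with Na+ ICN and 164, 171 and 160 CPM with K+ ICN. Its Na+ ICN libraries lay just above PA without passing (1.06-fold, edgeR adjusted p = 0.175), and it was lower with K+ than with Na+ ICN (0.91-fold, edgeR adjusted p = 0.0126). Both Rpl22l1 calls were near the threshold. The first was lost with upper-quartile scaling, with no filter on low counts and in a fit of the 6 libraries alone (adjusted p between 0.0607 and 0.0618). It was also lost without any of PA replicates 1 to 3 and without Na+ ICN replicate 2 or 3 (adjusted p between 0.0568 and 0.166), and the second without Na+ ICN replicate 2 or 3 or any K+ ICN replicate (adjusted p between 0.0636 and 0.111). Rpl22 lost its call without Na+ ICN replicate 1, K+ ICN replicate 1 or K+ ICN replicate 3 (adjusted p = 0.0579, 0.0527 and 0.089).

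Other paralogs mostly did not pass. Rpl7l1, a paralog of Rpl7, rose with K+ ICN (1.14-fold, edgeR adjusted p = 0.0299), from 43.1, 45.3 and 47.5 CPM to 53.6, 49.7 and 53.0 CPM, and did not pass with Na+ ICN (48.6, 46.1 and 50.9 CPM, edgeR adjusted p = 0.298). Its K+ ICN call was lost without PA replicate 1 or 2 or K+ ICN replicate 1 or 3 (adjusted p between 0.074 and 0.152). Rpl7 was lower with K+ than with Na+ ICN at 375, 362 and 359 CPM (0.935-fold, edgeR adjusted p = 0.0391), a call lost without any 1 of 5 libraries (Na+ ICN replicates 1 to 3 and K+ ICN replicates 2 and 3; adjusted p between 0.0582 and 0.151). Rps4l was 5.58, 5.61 and 6.55 CPM with PA, 7.74, 7.36 and 7.70 CPM with Na+ ICN and 7.71, 8.94 and 6.71 CPM with K+ ICN. Both ICN groups of Rps4l lay above PA, at 1.29-fold and 1.31-fold, with edgeR adjusted p of 0.128 and 0.0851. Rpl36al was between 50.3 and 55.6 CPM in the 9 libraries and Rps27l between 16.7 and 19.3 CPM, and neither passed in any comparison. Rps27rt varied too widely to compare, from 6.53 to 17.5 CPM within PA alone.

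Rps27, Rpl10 and Rpl39 complete the genes with a paralog. Rpl10, one of the last proteins to join the large subunit, was 354, 338 and 337 CPM with PA and 373, 375 and 360 CPM with Na+ ICN (1.09-fold, edgeR adjusted p = 0.0072; 0.0516 without PA replicate 3). With K+ ICN Rpl10 did not pass (1.05-fold, edgeR adjusted p = 0.0881). Rpl39 and Rps27 did not pass in any comparison (edgeR adjusted p of 0.107 or more for Rpl39 and 0.4 or more for Rps27). Rpl36a rose with Na+ ICN (1.15-fold, edgeR adjusted p = 0.00542) although PA replicate 3, at 98.5 CPM, overlapped the Na+ ICN libraries, and the call was lost without PA replicate 1 or 2 (adjusted p = 0.0602 and 0.0708). Rps4x with K+ ICN was 354, 337 and 326 CPM (1.07-fold, edgeR adjusted p = 0.0247), a call lost in 5 of the fits without a single library (adjusted p up to 0.221 without K+ ICN replicate 1). Against Na+ ICN, Rps4x was lower with K+ ICN (0.926-fold, edgeR adjusted p = 0.0184; up to 0.165 without K+ ICN replicate 3).

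Within the 77 canonical genes, the size of the Na+ ICN change had little relation to transcript length (Pearson r = 0.04, Spearman rho = 0.19) or GC content (r = -0.08, rho = -0.14). With mean level the correlation was r = 0.55 and rho = 0.34, and the low end of that scale holds the genes whose counts sit largely in pseudogene rows. These are descriptions over genes that share libraries and depth, not over independent samples. Median transcript lengths were 910 bases for the large (383 to 2989) and 860 bases for the small subunit genes (345 to 5179). The longest was that of Rps15a. Which transcripts the cells used was not measured, and lengths longer than those would blur the relation to length and the length correction.

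The TOP motif was looked for at annotated starts, because these genes share it as a class. Of the members, 68 had an entry in RefSeq's table of start regions (GRCm38.p6), 57 of them canonical. A C followed by at least 4 bases that are each C or T, read on the gene's own strand, began exactly at the annotated start in 13 of the 57 (22.8%), beside 3.01% of 27025 genes in the table. Anywhere within 20 bases of the start, such a run was present in 80.7% of canonical members beside 53.3% of all genes. It began at the start in 4 of 32 canonical members that rose with Na+ ICN and in 9 of 25 that did not pass. The windows below run from 40 bases before to 20 bases from the annotated start for Rpl12, Rpl4 and Rps7, which rose with Na+ ICN, and for Rpl22l1, which fell, with the longest such run within 20 bases of the start in capitals (in Rps7, the later of a pair of equal length). They lie at chr2:32961672-32961731 (plus strand) for Rpl12, chr9:64173347-64173406 (plus strand) for Rpl4, chr12:28635934-28635993 (minus strand) for Rps7 and chr3:28805468-28805527 (plus strand) for Rpl22l1.
Rpl12: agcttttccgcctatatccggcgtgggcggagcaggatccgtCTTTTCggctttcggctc
Rpl4: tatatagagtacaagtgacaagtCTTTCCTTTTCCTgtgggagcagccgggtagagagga
Rps7: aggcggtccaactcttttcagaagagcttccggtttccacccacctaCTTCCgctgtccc
Rpl22l1: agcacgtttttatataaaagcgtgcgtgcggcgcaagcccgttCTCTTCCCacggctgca
In all 4 the run lies off the annotated first base, before it in Rpl4 and after it in the others. Such a run lay within 20 bases of the start in 24 of the 32 canonical members that rose with Na+ ICN and in 22 of the 25 that did not pass. Rps3a1 and Rps4x, which rose, have none within that distance of the RefSeq start. Annotations place starts differently: for Rps3a1 RefSeq gives 86142668, while the GENCODE gene begins at 86142702. The starts used in these cells were not measured, so a missing run here does not show that a message lacks the motif. A match of letters is a description of these windows and not of a factor's use of them.

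Genes outside the rule that code for ribosomal parts or partners were read as lists. Rack1, a scaffold on the head of the small subunit, was 326, 321 and 316 CPM with PA, 357, 346 and 350 CPM with Na+ ICN and 351, 342 and 338 CPM with K+ ICN. It rose with Na+ ICN (1.10-fold, edgeR adjusted p = 0.000856) and with K+ ICN (1.07-fold, edgeR adjusted p = 0.0272), the latter lost without PA replicate 2 or 3 or K+ ICN replicate 1 or 2 (adjusted p between 0.0599 and 0.126). Fau, a ribosomal protein made as a fusion to a relative of ubiquitin, did not pass in any comparison and overlapped between groups.

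Of a list of 17 translation factors and other genes whose messages carry a TOP motif, 8 rose with Na+ ICN (median log2 0.12). This was 47.1% of the list, beside 5.63% of all genes tested. With K+ ICN 5 rose (median 0.06), 29.4% beside 8.15%. With K+ against Na+ ICN 6 were lower (median -0.08), 35.3% beside 3.25%. By edgeR, DESeq2 and limma voom 0 moved the other way in these comparisons. At an unadjusted p under 0.05 only 1 did, lower with K+ ICN. Eef2, which moves the ribosome along the message, rose 1.20-fold with Na+ ICN (edgeR adjusted p = 2.59e-11) and 1.12-fold with K+ ICN (edgeR adjusted p = 1.18e-06). Tpt1 rose 1.21-fold and 1.12-fold (edgeR adjusted p = 2.22e-10 and 9.83e-06). Eef1g, a subunit of the exchange factor for the elongation factor Eef1a1, rose 1.19-fold and 1.12-fold (edgeR adjusted p = 3.6e-08 and 3.43e-05). With K+ against Na+ ICN, Eef2 was lower, at 0.933-fold (edgeR adjusted p = 0.0053), and so was Eef1a1, at 0.945-fold (edgeR adjusted p = 0.00978; 0.0624 without Na+ ICN replicate 1 and 0.0599 without K+ ICN replicate 2). Tpt1 was lower, at 0.928-fold (edgeR adjusted p = 0.00736; 0.0838 without Na+ ICN replicate 2 and 0.0949 without K+ ICN replicate 3).

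The 54 genes of ribosome biogenesis, which process ribosomal RNA and assemble the subunits, gave 0 calls with Na+ ICN by edgeR, DESeq2 and limma voom. Of all genes tested, edgeR called 5.63% higher and 5.22% lower. At an unadjusted p under 0.05, 1 of the 54 was higher and 2 were lower, and their median log2 fold change was 0.00. With K+ ICN 1 was lower (1.85% beside 7.68% of all genes) and 0 higher (beside 8.15%). The lower gene was Wdr12, at 0.859-fold (edgeR adjusted p = 0.0395). DESeq2 called 0 higher and 1 lower, limma voom 1 higher and 1 lower, and 4 were higher and 4 lower at an unadjusted p under 0.05. The Wdr12 call was lost without PA replicate 1 or 3 or K+ ICN replicate 2 or 3 (adjusted p between 0.0679 and 0.173). Between K+ and Na+ ICN edgeR called 0 of the 54, beside 3.33% higher and 3.25% lower of all genes. DESeq2 called 1 lower and limma voom 0, with 2 higher and 6 lower at an unadjusted p under 0.05. RNA polymerase I and its factors, 12 genes that transcribe ribosomal RNA, gave 0 calls in the 3 comparisons by edgeR, DESeq2 and limma voom. In a list of 12 genes, 0 calls lies near the shares over all genes and says little about the list. At an unadjusted p under 0.05, 1 was higher and 1 lower with Na+ ICN, 1 lower with K+ ICN and 1 lower with K+ against Na+ ICN. Poly(A) libraries do not measure ribosomal RNA itself.

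**Figure D5:**
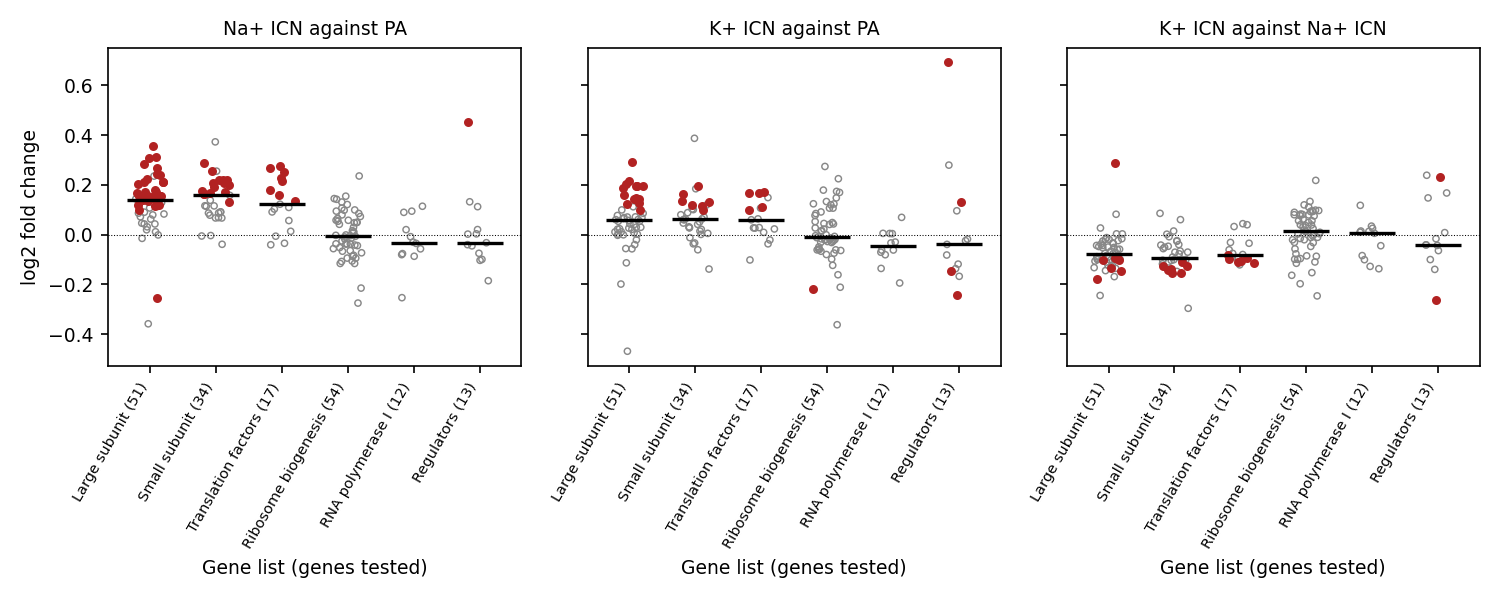
Log2 fold changes of the large and small subunit genes and of 4 related gene lists in the 3 comparisons; each circle is a gene, red where edgeR's adjusted p was under 0.05, and the black bar is the median of the list. The list labelled translation factors also holds other genes with TOP messages. The medians of that list and of both subunits lie above 0 against PA and below 0 for K+ against Na+ ICN. Those of ribosome biogenesis lie within 0.02 of 0.

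Among 13 regulators of ribosomal protein synthesis, Eif4ebp1, a repressor of cap-dependent translation when it is not phosphorylated by mTOR, was 12.4, 12.8 and 9.91 CPM with PA, 15.1, 15.8 and 16.5 CPM with Na+ ICN and 20.3, 18.5 and 18 CPM with K+ ICN. It rose 1.37-fold with Na+ ICN (edgeR adjusted p = 0.00399; 0.0703 without PA replicate 3) and 1.62-fold with K+ ICN (edgeR adjusted p = 3.69e-06). It was the single regulator called with Na+ ICN, 7.69% of the list beside 5.63% of all genes called higher. With K+ ICN against PA 2 regulators rose and 2 fell, 15.4% each beside 8.15% higher and 7.68% lower of all genes. Between K+ and Na+ ICN 1 was higher and 1 lower, 7.69% each beside 3.33% and 3.25%. Mycn, a transcription factor known to raise ribosomal genes, was 83.8, 79.2 and 82.0 CPM with PA, 79.8, 87.4 and 79.2 CPM with Na+ ICN and 66.6, 74.3 and 67.0 CPM with K+ ICN. It fell to 0.845-fold of PA with K+ ICN (edgeR adjusted p = 0.000575) and lower with K+ than with Na+ ICN, at 0.833-fold (edgeR adjusted p = 0.000446). Rheb, which activates mTOR, was 1.17-fold higher with K+ than with Na+ ICN (edgeR adjusted p = 0.000267) and 1.10-fold higher than with PA (edgeR adjusted p = 0.0334; up to 0.16 without PA replicate 2). Rptor, a subunit of the mTOR complex, fell to 0.904-fold of PA with K+ ICN (edgeR adjusted p = 0.0452; up to 0.285 without PA replicate 1).

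Markers of cell types moved with the treatments too. Of all genes tested, 5.63% were called higher and 5.22% lower with Na+ ICN against PA. With K+ ICN against PA these shares were 8.15% and 7.68%, and with K+ against Na+ ICN they were 3.33% and 3.25%. The 11 neuronal markers had the highest sum of the lists, 8025 to 8112 CPM in PA, 7868 to 8009 CPM in Na+ ICN and 7270 to 7349 CPM in K+ ICN, and the cells are labelled as cortical neurons. Of these, 2 fell with Na+ ICN (Gad1 and Gad2), and with K+ ICN 2 rose and 4 fell. With K+ against Na+ ICN 2 of the neuronal markers were higher (18.2%) and 4 lower (36.4%). Estimates there were positive for 6 and negative for 5 (median log2 0.07). The lower neuronal sum with K+ than with Na+ ICN is thus not shared by the list. With K+ ICN against PA, neuronal estimates were positive for 4 and negative for 7 (median log2 -0.06). In that comparison 18.2% of the list was called higher and 36.4% lower. Of 11 astrocyte markers tested, 8 rose with each ICN, and their sum was 824 to 863 CPM in PA, 986 to 1043 CPM in Na+ ICN and 965 to 976 CPM in K+ ICN. Of 10 progenitor and cell division markers, 5 rose with Na+ ICN and 6 with K+ ICN, with sums of 616 to 664, 723 to 769 and 814 to 846 CPM. These astrocyte and progenitor sums, like the ribosomal protein sums, were above PA in every ICN library. Between the ICN groups, every K+ ICN library lay below every Na+ ICN library in the astrocyte sum and above every one in the progenitor sum. The ribosomal protein sums overlapped, with a lower mean for K+ ICN. Single astrocyte markers went both ways with K+ against Na+ ICN (median log2 0.06, 6 estimates positive and 5 negative). Calls among them were 1 higher (9.09%) and 3 lower (27.3%). The lower astrocyte sum is thus not shared by the list. All 10 progenitor estimates were positive, with 1 called higher. Fibroblast markers rose in 4 of 5 cases with each ICN, with sums of 21.2 to 26.0, 36.1 to 36.7 and 41.0 to 46.7 CPM. Endothelial and mural markers rose in 2 and 3 of 6 cases, with sums of 63.0 to 75.9, 105 to 114 and 118 to 149 CPM. Microglial sums were 7.17 to 8.29 CPM in PA, 7.90 to 12.6 CPM in Na+ ICN and 8.90 to 9.88 CPM in K+ ICN. Of 6 markers tested, edgeR, DESeq2 and limma voom called 0 against PA, and 0 had an unadjusted p under 0.05. Estimates were positive for 4 with Na+ ICN (median log2 0.30) and for 5 with K+ ICN (median 0.17). In a list of 6 genes, 0 calls lies near the shares over all genes and says little about the list. Oligodendrocyte lineage sums lay between 146 and 175 CPM in all groups, with 2 of 7 markers higher and 1 lower against PA with either ICN. Red blood cell sums lay between 0.698 and 2.38 CPM, and the 1 gene tested, Hba-a1, rose with K+ ICN. S100b, Tmem119, P2ry12, Mog, Cldn5, Cdh5, Flt1, Lum, Hba-a2, Hbb-bs and Hbb-bt were under 1 CPM in every library and Alas2 had 0 counts. Mitochondrially encoded genes took 4.15% to 4.33% of counts in PA, 5.24% to 5.44% in Na+ ICN and 4.93% to 5.18% in K+ ICN. Their part in the ribosomal protein result was not tested, except that with counts outside mitochondrially encoded genes as the denominator the sums were 1.70% for PA, 1.90% for Na+ ICN and 1.82% for K+ ICN.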

How the data were processed

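The authors deposited a table of whole-number raw counts with 40773 gene symbols and 9 libraries, 3 per group. The tools named, per the submitters' processing notes, were Trim Galore, STAR and RSEM on GRCm38 (mm10); versions are not named. Per the labels, a stranded kit was used on poly(A) RNA, and the series design gives single-end reads. Not given in the sources used here are the tool that gave the counts, whether they are rounded estimates, the gene annotation and the strandedness used in counting. These settings decide how reads shared with pseudogenes, overlapping or antisense genes were counted.

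The main test was the quasi-likelihood F test of edgeR 4.0.16 (R 4.3.3; filterByExpr with a count minimum of 10, TMM scaling, robust quasi-likelihood fit over all 9 libraries). This left 15183 genes holding 99.9% of counts, and p-values were adjusted by Benjamini-Hochberg over them, with a threshold of 0.05. The common coefficient of variation between replicates was 5.67%. Replicate pairs differed by more than counting noise (chi-square per degree of freedom 3.23 to 4.18), so every library was kept as its own replicate. CPM is the count scaled to a common library total. The test was run on simulated counts as a check.

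The members and gene lists were chosen with earlier results of these data known. Named genes are, per comparison and subunit, the 5 called members with the smallest p in the main direction, any called in the other direction, the stalk proteins, Rpsa, Rps6, Rps27a, Rpl5, Rpl11, paralogs with their partners, and up to 4 called genes per list. Rpl37a, Rps2, Rpl41, Rpl26, Rpl34, Rpl21, Rpl9 and Rps15, and the marker genes named with a direction, were added after their values were seen. Some genes that the rule names are not reported here and are not drawn by name, though counts, sums and medians include them. Transcript lengths, GC and coding sequences came from GENCODE vM21 (89 of 90 members matched), and pseudogene transcripts were aligned with blastn 2.17.0. Alternatives were other scalings, DESeq2 1.42.0, limma 3.58.1 voom, other filters, a replicate block, a length and GC offset (mgcv 1.9.3), pseudogene rows added to their parents, and each library left out in turn.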

Additional observations from a re-analysis of the deposited data

How the results depend on the processing

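Directions of the counts of called large and small subunit genes held under other scalings (DESeq2 size factors, upper quartile, TMM without members, mitochondrial and pseudogene rows), DESeq2, limma voom and other filters, and these counts stayed within 1.5 times of those reported. With a length and GC offset, 2 small subunit genes passed with K+ ICN against PA and 18 large subunit genes passed between K+ and Na+ ICN; with that offset and the replicate block together, these were 4 and 19, and 14 small subunit genes passed between K+ and Na+ ICN. The cause was not tested. With the replicate block alone the paired counts were 30 and 16 (Na+ ICN against PA, large and small), 14 and 9 (K+ ICN against PA) and 12 and 9 (K+ against Na+ ICN). Correlations of deviations between same-numbered libraries of different groups ran from -0.0234 to 0.0483. Between differently numbered libraries they ran from -0.0366 to 0.0395. The same-numbered pairs of Na+ and K+ ICN were at 0.0282, 0.0321 and 0.0483. Correlations this small cannot decide whether replicate numbers pair the libraries. Without single libraries, counts ranged from 22 to 31 and 14 to 20, from 11 to 15 and 4 to 8, and from 0 to 11 and 4 to 9 in the same order. The direction turned for large subunit genes between K+ and Na+ ICN without Na+ ICN replicate 1, where the 1 call was Rpl22l1 as higher. Rps6 with Na+ ICN turned from -0.04 to 0.21 on the log2 scale with -ps rows added and to 0.21 with sequence-matched pseudogene rows added, an alternative chosen after seeing the data, because the copies hold most of its counts. The length and GC offset also ended the calls of Rpl11 and Rplp2 with Na+ ICN (adjusted p = 0.19 and 0.111) and of Rpl7l1, Rps4x, Rack1, Eef1a1, Rheb and Wdr12 with K+ ICN (adjusted p between 0.0602 and 0.48), and Rpl22 was then lower with K+ ICN than with PA (adjusted p = 0.0137). Rpl4 and Rpl7 between K+ and Na+ ICN were lost with no filter on low counts (adjusted p = 0.058 and 0.0754). Wdr12 and Rptor with K+ ICN were lost with upper-quartile scaling (0.0643 and 0.0891), and Rheb and Rptor with DESeq2 (0.0576 and 0.063). Rplp2 passed as lower with K+ than with Na+ ICN under upper-quartile scaling, no filter, the replicate block, the offset with and without that block, and without Na+ ICN replicate 3 or K+ ICN replicate 1 (adjusted p between 0.0052 and 0.0485). Rplp1 did so without Na+ ICN replicate 3 (0.0467) and under the offset with the block (0.00127), where it was also lower with K+ ICN than with PA (4.21e-05). Of the called members, 18 of 30 and 12 of 16 with Na+ ICN, 8 of 14 and 2 of 7 with K+ ICN, and 0 of 8 and 4 of 7 between K+ and Na+ ICN passed in all 22 alternatives. Members with few counts, Rpl21 and Rpl34 among them, allowed only large changes to be seen.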
